A study of Homo sapiens with 6 samples.

Results

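The imprinted miRNA cluster of chromosome band 14q32 was followed in m7G-RIP-seq of METTL1-knockdown A549 cells. Its members were taken by name, as every mature miRNA in the count tables whose number belongs to a hairpin of the cluster. This rule uses no measured value, but it was set with earlier results of these data known. The rule gave 90 of the 2588 mature miRNAs in the tables, made from 50 hairpins. A549 is a human lung adenocarcinoma line, and here every culture carried a doxycycline-inducible short hairpin RNA against METTL1, delivered by lentivirus and expressed for 5 days at 200 ng/ml doxycycline. METTL1 is a methyltransferase that makes internal N7-methylguanosine (m7G), best known in tRNA. Of the 6 libraries, 3 were made from total RNA as input, and 3 from heat-denatured total RNA pulled down by an antibody against m7G (m7G-RIP). Both groups were knockdown cells, and libraries of METTL1-proficient cells or of a control IgG were not analysed here, so each value compares antibody-recovered with total RNA and none measures the effect of METTL1, whose own level these miRNA tables do not hold. The study's general protocol sets aside part of the RNA as input before immunoprecipitation, but whether libraries of the same number came from the same RNA, whether replicates were separate cultures, and which hairpin RNA the cells carried is not given in the sources used here. The p-values therefore measure the spread between these libraries.

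The 14q32 miRNAs lie in the DLK1-DIO3 domain, in which the long non-coding RNAs and small RNAs are expressed from the maternal chromosome and protein-coding genes such as RTL1 from the paternal one. The miRNAs are cut from long transcripts of the strand that also carries MEG3 and MEG8, they are best known from placenta, embryo and brain, and most of the cluster is found only in placental mammals. Each hairpin can yield a 5p and a 3p mature strand, and the seed (bases 2 to 8) sets most of the target choice of a miRNA. In the GRCh38 build with GENCODE release 44, the 50 hairpins lay on the plus strand at chr14:100869060-101066801, a span of 197.74 kb. The first 8, from MIR493 to MIR136, lay in MIR493HG, and MIR431, MIR433, MIR127, MIR432 and MIR136 also overlapped an exon of RTL1 on the opposite strand. MIR370 stood alone in introns of MIR493HG and MEG8. The remaining hairpins, MIR379 to MIR656, form the MIR379 to MIR656 group. They began in introns of MEG8, crossed a stretch with no annotated protein-coding or long non-coding gene, and ended in introns and exons of MEG9.

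RefSeq (GRCh38.p14) held a mature sequence for 89 of the 90 members, and miR-668-3p had none. In the list below, the 7 members enriched in m7G-RIP come first, followed by 5 of the 21 depleted members. Other depleted members, some with lower log2 ratios, are not in this list. Sequences run 5′ to 3′, and capitals mark the seed.
miR-541-3p: uGGUGGGCacagaaucuggacu
miR-654-5p: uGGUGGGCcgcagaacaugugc
miR-485-5p: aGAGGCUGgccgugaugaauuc
miR-432-5p: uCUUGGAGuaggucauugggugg
miR-382-5p: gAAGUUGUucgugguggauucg
miR-134-5p: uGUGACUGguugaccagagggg
miR-409-3p: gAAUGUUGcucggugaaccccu
miR-381-3p: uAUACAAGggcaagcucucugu
miR-127-3p: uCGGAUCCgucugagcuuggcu
miR-411-5p: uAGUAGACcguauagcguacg
miR-494-3p: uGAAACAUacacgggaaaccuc
miR-654-3p: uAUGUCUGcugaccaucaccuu
The 89 sequences held 78 distinct seeds, and 10 seeds were shared by 21 members. One shared seed, GGUGGGC, belonged to miR-654-5p (chr14:101040234-101040255) and miR-541-3p (chr14:101064548-101064569), whose log2 ratios were the 2 highest among the tested members. Aligned without gaps from the 5′ end, they had the same base at 11 of 22 positions, the seed included. The seed of miR-381-3p (chr14:101045968-101045989) was shared with miR-300, which had no count in any library.

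The total RNA libraries held 9155690 to 10753443 miRNA counts and the m7G-RIP libraries 2649238 to 3106556. The 14q32 members gave 33731 to 39286 of these counts in total RNA and 10003 to 11625 in m7G-RIP. The sample text of the m7G-RIP libraries describes the medium of the colon line Caco-2, although their titles and cell line labels say A549. A list of 7 miRNAs was drawn up for intestine or colon, and how specific each is to that tissue was not tested. On it, miR-192-5p, miR-194-5p, miR-215-5p and miR-375 were detected in every library and miR-373-3p and miR-371a-5p in none. miR-372-3p had 0, 3 and 1 counts in total RNA and none in m7G-RIP. The summed level of the list was 21703 to 22303 CPM (counts scaled to a common library total) in total RNA and 3110 to 3405 CPM in m7G-RIP. Nearly all of it was miR-192-5p, whose mean went from 21337 CPM in total RNA to 2921 CPM, whereas miR-375 went the other way, from 108 to 195 CPM (log2 ratio 0.85, adjusted p = 0.00307 by edgeR). Blood and liver markers had no count in total RNA, and m7G-RIP replicate 2 stood out by 374 counts of muscle markers against 66 and 2 in the other two. The part of these differences in the values below was not tested.

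As a share of all miRNA counts, the cluster was slightly larger in m7G-RIP. Its members took 0.365%, 0.360% and 0.368% of the counts in total RNA replicates 1, 2 and 3, and 0.378%, 0.391% and 0.374% in m7G-RIP. The groups did not overlap, with means of 0.364% ± 0.00442 and 0.381% ± 0.00874 (SD, n = 3 each; exact two-sided permutation p = 0.1, the smallest that 3 against 3 libraries can give). The order turned when miR-21-5p, which held the largest share of total RNA counts, was left out. With miR-21-5p left out of the total, the members took 0.694% ± 0.0256 of total RNA and 0.401% ± 0.00949 of m7G-RIP counts (SD, n = 3 each; exact permutation p = 0.1).

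Fewer members were seen after immunoprecipitation, as were fewer miRNAs of the whole table. Over all 2588 miRNAs, total RNA had a count for 1076, 1075 and 1074, and m7G-RIP for 731, 800 and 823. Total RNA had a count for 72, 71 and 69 of the 90 members, and m7G-RIP for 37, 49 and 47 (exact two-sided permutation p = 0.1). Depth differed between the groups, and thinning the total RNA libraries to the m7G-RIP depths would leave 63.9 to 65.9 members with a count. In all, 60 members had counts in both groups, 19 in total RNA only, 0 in m7G-RIP only, and 11 in no library. Neither the thinning nor this split was run over all miRNAs, so the loss cannot be called particular to the cluster. The 11 include miR-300, miR-412-3p and miR-323b-5p. Among the 19 was the pair miR-487a-3p and miR-154-3p, which share the seed AUCAUAC and had 2 to 6 counts in each total RNA library.

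The make-up of the cluster differed between the groups. In total RNA, miR-381-3p alone took 32.4%, 31.2% and 29.9% of the 14q32 counts, and in m7G-RIP it took 1.03%, 0.750% and 1.26%. The share of miR-127-3p was 18.4% ± 0.767 in total RNA and 9.07% ± 1.08 in m7G-RIP (SD, n = 3 each; exact permutation p = 0.1). Other members took larger shares. The share of miR-654-5p went from 2.00% ± 0.112 to 13.8% ± 0.704, that of miR-134-5p from 3.40% ± 0.485 to 11.9% ± 1.26, and that of miR-409-3p from 7.32% ± 0.251 to 15.7% ± 0.754 (SD, n = 3 each; exact permutation p = 0.1 for each). miR-409-3p had the largest share in each m7G-RIP library, and the order of the members after it differed between these libraries. These shares depend on no scaling between libraries.

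**Figure D1:**
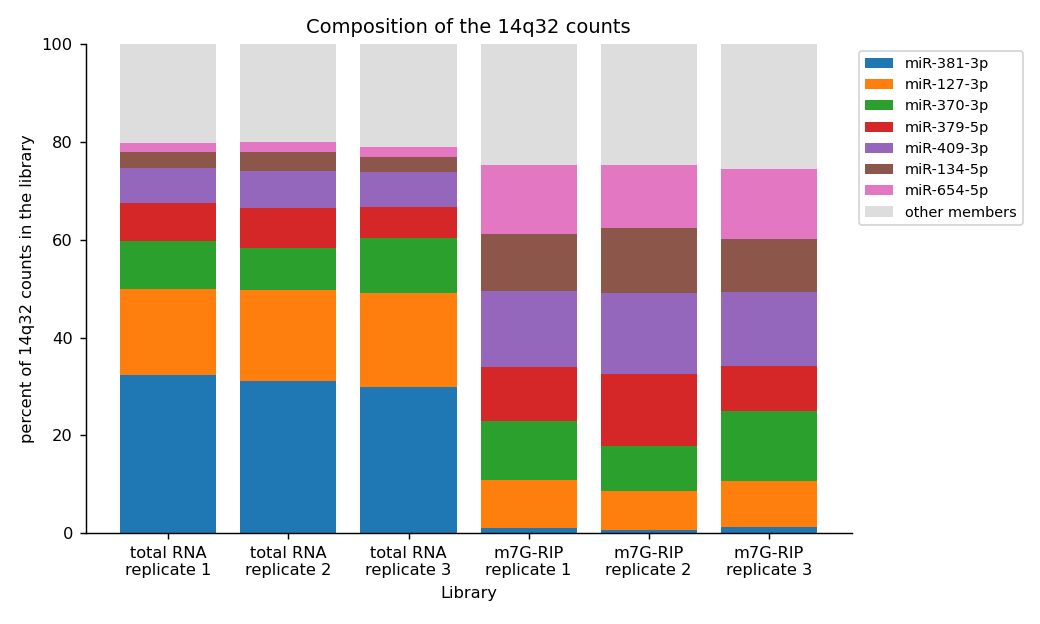
Percent of the 14q32 counts of each library (vertical axis) taken by 7 members and by the other members together, with 1 bar per library. The band of miR-381-3p fills 29.9% to 32.4% of each total RNA bar and 0.750% to 1.26% of each m7G-RIP bar, and the band of miR-654-5p goes from 2.00% to 13.8% on average.

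The ratio of m7G-RIP to total RNA was tested for each miRNA with edgeR's quasi-likelihood test on counts scaled by trimmed means (TMM), fitted to all miRNAs, with Benjamini-Hochberg adjustment and a threshold of 0.05. Levels are TMM-scaled CPM. The expression filter kept 620 miRNAs, 43 of them members. The other 47 members had at most 56 counts in any library, and 29 of these had no m7G-RIP count. Of the 43 tested, 7 were enriched (16.3%), 21 were depleted (48.8%) and 15 passed in neither direction. Over all 620 miRNAs tested, 23.5% were enriched and 29.2% were depleted. For 8 members all m7G-RIP libraries were higher than all total RNA libraries, and for 23 they were lower, against 29.5% and 36.5% of all miRNAs tested. The median log2 ratio was -1.27 over the members and -0.07 over all miRNAs tested, a direction that turned under a stricter filter. With at least 10 counts required in each of the libraries, the refitted median was 0.17 over 23 members and 0.0646 over all miRNAs kept. That filter leaves out members low in the shallower m7G-RIP libraries. It kept 9 of the 21 depleted calls and 6 of the 7 enriched calls, so the turn cannot be told apart from this selection.

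These counts depend on which members could be tested. Of the 43, 26 were over the filter's minimum of 1.631 CPM in all 6 libraries, and 15 reached it in all 3 total RNA libraries but in fewer than 3 m7G-RIP libraries. Those 15 passed through the group in which they are high, and they hold 11 of the 21 depleted members. Among the 23 members with at least 10 counts in each library, 6 were enriched (26.1%) and 9 depleted (39.1%), beside 32% and 32.9% of all 359 such miRNAs, with median log2 ratios of 0.22 and 0.13. A mean of at least 100 counts, a limit chosen after seeing the data that leans toward the deeper total RNA libraries, also left 23 members, of which 6 were enriched (26.1%) and 11 depleted (47.8%), beside 29.7% and 43.8% of 306 miRNAs. Both shares of depleted members lay nearer the background than that of all tested members, but the limit of 10 counts leaves out members low in m7G-RIP. Scaling mattered as well. With library size in place of TMM, 12 members were enriched and 15 depleted, so that enriched members made up 44.4% of the calls and not 25.0%. The median of all miRNAs tested then moved from -0.07 to 0.48, and the members' median lay 1.18 log2 units under it, where with TMM it lay 1.19 under.

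**Figure D2:**
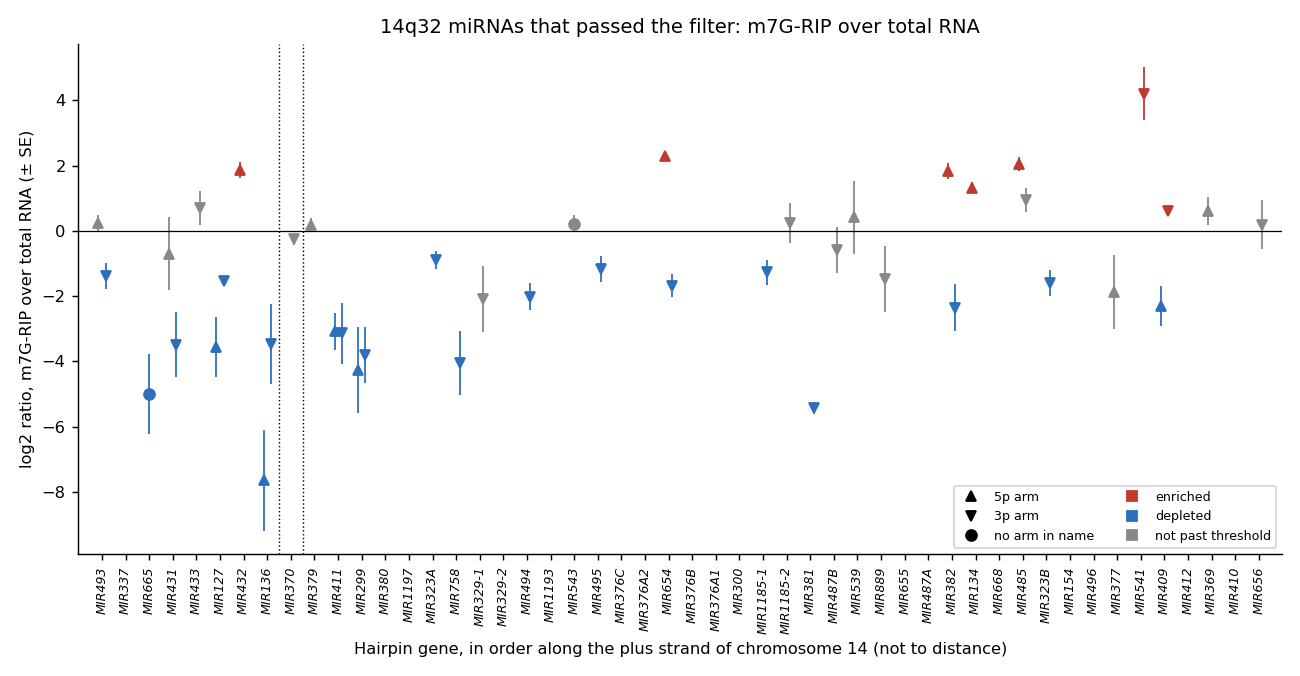
Log2 ratio of m7G-RIP over total RNA (vertical axis, ± SE) of the 43 tested members, placed by hairpin in order along the chromosome, with upward triangles for 5p arms, downward triangles for 3p arms and colours for the call. Dotted lines set off MIR370. Of the 7 enriched members, 5 lie between MIR382 and MIR409 near the right end, and the lowest point is miR-136-5p, whose fitted ratio rests on 0 counts in m7G-RIP.

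The 7 enriched members were miR-541-3p, miR-654-5p, miR-485-5p, miR-432-5p, miR-382-5p, miR-134-5p and miR-409-3p. They took 14.6% ± 0.751 of the 14q32 counts in total RNA and 51.8% ± 0.148 in m7G-RIP (SD, n = 3 each). Because the 7 were picked by their ratio in these same libraries, the direction of this difference follows largely from the choice. All 7 stayed enriched when each library was left out in turn. miR-654-5p was at 86.8, 83.8 and 94.1 CPM in total RNA and at 415, 441 and 446 CPM in m7G-RIP. Its libraries did not overlap, and its log2 ratio was 2.30 (SE 0.14, adjusted p = 1.51e-06 by edgeR). miR-485-5p went from 26.2, 26.6 and 27.5 CPM to 130, 101 and 101 CPM, a log2 ratio of 2.05 (SE 0.21, adjusted p = 3.34e-05 by edgeR).

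miR-134-5p, known in neurons for holding back growth of dendritic spines, was the most abundant enriched 5p strand of total RNA. It measured 144, 173 and 133 CPM in total RNA and 340, 451 and 338 CPM in m7G-RIP, a log2 ratio of 1.33 (SE 0.18, adjusted p = 0.000241 by edgeR). miR-432-5p was the only enriched member of the MIR493 to MIR136 group among those tested, at 24.7, 34.9 and 34.1 CPM against 86.0, 126 and 132 CPM. Its log2 ratio was 1.87 (SE 0.25, adjusted p = 0.000241 by edgeR). The total RNA and m7G-RIP libraries were apart for both miRNAs.

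miR-382-5p rose from 20.9, 25.9 and 27.5 CPM to 78.9, 74.7 and 113 CPM, with a log2 ratio of 1.84 (SE 0.25, adjusted p = 0.000266 by edgeR). miR-409-3p had the smallest enrichment and the highest level. It measured 320, 334 and 316 CPM in total RNA and 460, 560 and 468 CPM in m7G-RIP, a log2 ratio of 0.62 (SE 0.13, adjusted p = 0.00355 by edgeR). With no expression filter, its log2 ratio was 0.34 and no longer passed (adjusted p = 0.121 by edgeR). miR-541-3p was at the other end, with 2, 5 and 9 counts in total RNA and 44, 29 and 58 counts in the shallower m7G-RIP libraries. Its log2 ratio was 4.20 (SE 0.82, adjusted p = 0.00214 by edgeR), and it was the single member that passed the filter through m7G-RIP alone.

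**Figure D3:**
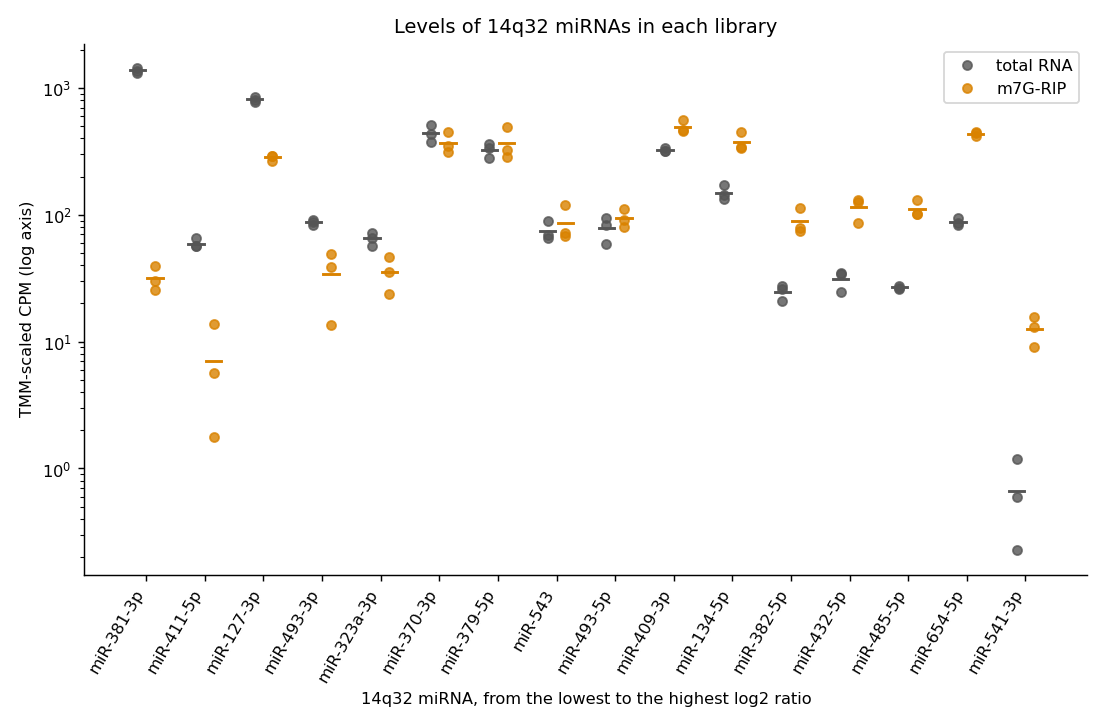
TMM-scaled CPM of 16 members in each library on a log axis, ordered from the lowest to the highest log2 ratio, with grey points for total RNA, orange points for m7G-RIP and a short line at each group's mean. The groups lie apart at both ends, as for miR-381-3p (1324 to 1435 against 25.4 to 39.3 CPM) and miR-654-5p (83.8 to 94.1 against 415 to 446 CPM), and overlap for miR-370-3p and miR-379-5p.

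Of the depleted members, miR-381-3p was the most abundant in total RNA. It measured 1435, 1369 and 1324 CPM in total RNA and 30.3, 25.4 and 39.3 CPM in m7G-RIP. The log2 ratio was -5.43 (SE 0.19, adjusted p = 5.89e-08 by edgeR), and under the alternatives it lay between -5.83 and -4.88. miR-127-3p, which in mouse acts on the Rtl1 transcript made from the opposite strand, measured 781, 811 and 850 CPM in total RNA and 293, 266 and 293 CPM in m7G-RIP. Its log2 ratio was -1.52 (SE 0.12, adjusted p = 5.16e-06 by edgeR). Its libraries did not overlap either, but it remained among the 6 members with the most counts in m7G-RIP.

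miR-411-5p fell from 65.2, 56.6 and 56.3 CPM to 1.77, 13.8 and 5.62 CPM, a log2 ratio of -3.08 (SE 0.57, adjusted p = 0.00172 by edgeR). Its m7G-RIP replicates spread widely, and all lay under total RNA. miR-494-3p went from 59.9, 60.9 and 51.4 CPM to 13.3, 23.2 and 6.42 CPM, a log2 ratio of -2.01 (SE 0.42, adjusted p = 0.00341 by edgeR). miR-654-3p went from 54.8, 43.4 and 41.0 CPM to 20.3, 14.4 and 8.83 CPM, a log2 ratio of -1.68 (SE 0.35, adjusted p = 0.00334 by edgeR). The other depleted members over the filter's minimum in all 6 libraries had smaller differences than miR-654-3p. By the naming rule they were miR-323b-3p with a log2 ratio of -1.60, miR-493-3p with -1.37, miR-1185-1-3p with -1.27 and miR-323a-3p with -0.89 (adjusted p = 0.00732, 0.018, 0.0187 and 0.0254 by edgeR). miR-495-3p, named after its values were seen, went from 47.2, 65.6 and 28.0 CPM to 16.5, 31.1 and 15.5 CPM, a log2 ratio of -1.16 (SE 0.40, adjusted p = 0.0365 by edgeR). Its libraries overlapped, and it was not called without total RNA replicate 1 or 2 or with library size in place of TMM.

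The weaker of these calls rested on single libraries or on the scaling. Without total RNA replicate 3, 13 members were depleted and not 21, and 11 of the 21 were called without each library in turn. The adjusted p of miR-323a-3p was 0.0533 without total RNA replicate 1 and 0.0519 without replicate 3. That of miR-1185-1-3p was 0.0555 to 0.0866 without any 1 of the total RNA replicates. With library size in place of TMM, miR-493-3p, miR-1185-1-3p and miR-323a-3p did not pass (adjusted p = 0.095, 0.149 and 0.315 by edgeR). The depleted members that had passed the filter through total RNA were named after their values were seen, and several were near or at 0 in m7G-RIP. miR-136-5p had 25, 47 and 33 counts in total RNA and none in m7G-RIP, at least 14.5-fold lower when m7G-RIP is set at 3 counts over the group. miR-665 had 29, 30 and 35 counts against 0, 1 and 0, and miR-758-3p had 112, 101 and 101 counts against 1, 0 and 7. The remaining ones were miR-431-3p, miR-127-5p, miR-136-3p, miR-411-3p, miR-299-5p, miR-299-3p, miR-382-3p and miR-409-5p, with log2 ratios from -4.26 for miR-299-5p to -2.29 for miR-409-5p. The most abundant of them, miR-409-5p, had 304, 301 and 287 counts in total RNA and 28, 40 and 5 in m7G-RIP.

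The 15 members that passed in neither direction include several abundant ones. miR-370-3p was at 434.2, 376.6 and 506.3 CPM in total RNA and 352, 315 and 447 CPM in m7G-RIP, a log2 ratio of -0.24 (SE 0.17, adjusted p = 0.269 by edgeR). miR-379-5p was at 338, 359 and 282 CPM and at 325, 497 and 286 CPM, a log2 ratio of 0.18 (SE 0.21, adjusted p = 0.508 by edgeR). Both overlapped between the groups, and neither sign was stable. Without m7G-RIP replicate 3, miR-370-3p was depleted, with a log2 ratio of -0.61 (adjusted p = 0.0248 by edgeR), and with library size in place of TMM it was at 0.31. miR-493-5p had a log2 ratio of 0.25 (SE 0.24) and miR-543 of 0.22 (SE 0.27). With library size in place of TMM, miR-379-5p, miR-493-5p and miR-543 were enriched, with log2 ratios of 0.72, 0.81 and 0.79 (adjusted p = 0.0121, 0.0208 and 0.0422 by edgeR). The less abundant miR-369-5p was enriched with that scaling as well. miR-485-3p measured 16.2, 18.5 and 19.7 CPM against 24.7, 55.6 and 24.9 CPM and did not overlap. Its log2 ratio of 0.95 missed the threshold (adjusted p = 0.0614 by edgeR), and it passed with DESeq2 (adjusted p = 0.0473). It also passed with the edgeR likelihood ratio test, limma-voom, library size alone, library sizes without the top 10 miRNAs, and at least 10 counts in every library. With DESeq2 size factors, no filter, the replicate block or any library left out, it did not pass. miR-329-3p had 0.589, 15.1 and 0.535 CPM in m7G-RIP against 21.3 to 23.9 CPM in total RNA. Without m7G-RIP replicate 2, the library with the most muscle marker counts, its log2 ratio went from -2.10 to -5.46 and passed the test (adjusted p = 0.000107 by edgeR). The others of low level, miR-431-5p, miR-433-3p, miR-487b-3p, miR-539-5p, miR-889-3p, miR-377-5p, miR-369-5p and miR-656-3p, had log2 ratios from -1.87 for miR-377-5p to 0.70 for miR-433-3p.

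Members of close sequence could have different log2 ratios. In the following lines are 3 pairs, with the seed in capitals.
miR-379-5p: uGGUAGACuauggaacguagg
miR-411-5p: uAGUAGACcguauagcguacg
miR-543: aAACAUUCgcggugcacuucuu
miR-495-3p: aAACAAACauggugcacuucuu
miR-1185-1-3p: aUAUACAGggggagacucuuau
miR-1185-2-3p: aUAUACAGggggagacucucau
miR-379-5p and miR-411-5p, from neighbouring hairpins in MEG8, have the same base at 14 of 21 positions, and their log2 ratios were 0.18 and -3.08. miR-543 and miR-495-3p share 18 of 22 positions, and their log2 ratios were 0.22 and -1.16. The test did not compare the members of a pair with each other, and miR-495-3p was chosen after its values were seen. miR-1185-1-3p and miR-1185-2-3p differ at 1 position and share a seed. Their m7G-RIP counts were nearly the same, 35, 22 and 32 against 35, 21 and 32, while in total RNA they were 200, 149 and 167 against 29, 73 and 73. How reads that match both were counted is not stated, so the split of counts within this pair is uncertain.

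The arms of a hairpin come from the same precursor, and their ratio within a library needs no scaling. Both arms had at least 10 counts in every library for 3 hairpins, and in all 3 the ratio of 3p to 5p counts was lower in every m7G-RIP library than in every total RNA library. For MIR654 the log2 ratio of 3p to 5p counts was -0.66, -0.95 and -1.20 in total RNA and -4.35, -4.93 and -5.66 in m7G-RIP, a 16.5-fold shift. For MIR493 the ratio was 0.01, 0.58 and -0.06 in total RNA and -3.04, -1.23 and -0.68 in m7G-RIP, a 3.56-fold shift. For MIR485 it was -0.69, -0.52 and -0.48 in total RNA and -2.40, -0.86 and -2.02 in m7G-RIP, a 2.30-fold shift. None of these groups overlapped, and each exact two-sided permutation p was 0.1, also after adjustment over the 3 hairpins.

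With a minimum of 3 counts, MIR382 and MIR409 could be added. The ratio of MIR382 moved by -4.57 log2 units, in the same direction. That of MIR409 moved by 3.41 log2 units the other way, toward its 3p arm, which is the arm that was enriched. Over the 10 hairpins with both arms tested, the arms of MIR382, MIR409 and MIR654 were called in opposite directions, both arms were depleted for MIR127, MIR136, MIR299 and MIR411, and both were enriched for 0. In MIR127, MIR136, MIR299, MIR411, MIR382 and MIR409 at least 1 depleted arm had passed the filter through total RNA, so the filter went far to fix these calls, and MIR654 alone of the 3 opposite pairs had both arms over the minimum in all 6 libraries. The 5p arm had the higher log2 ratio in 6 and the 3p arm in 4 of the 10.

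**Figure D4:**
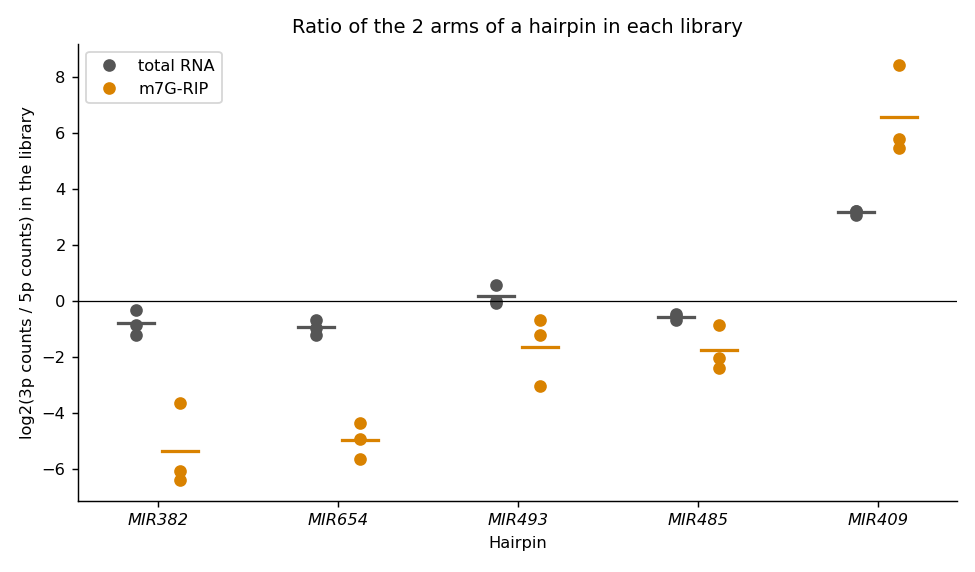
Log2 of 3p over 5p counts in each library (vertical axis) for 5 hairpins, with grey points for total RNA, orange points for m7G-RIP and a short line at each mean. The orange points lie under the grey ones for MIR382, MIR654, MIR493 and MIR485 and over them for MIR409, with no overlap in any of the 5.

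Over the tested members as a whole, 5p strands had 5 enriched and 5 depleted of 16 (31.2% each), beside 26.2% and 32.5% of all tested 5p strands, with a median log2 ratio of 0.21. The 5p shares lay near the background. Strands of the 3p arm had 2 enriched (8%) and 15 depleted (60%) of 25, beside 18.7% and 32.1% of all tested 3p strands, with a median of -1.48. Of the depleted 3p strands, miR-431-3p, miR-136-3p, miR-411-3p, miR-299-3p, miR-758-3p and miR-382-3p had passed the filter through total RNA. So had the depleted 5p strands miR-127-5p, miR-136-5p, miR-299-5p and miR-409-5p, while the enriched miR-541-3p had passed through m7G-RIP. The arm shares therefore depend on the filter. Over all miRNAs tested, the medians were -0.13 for 237 5p strands and -0.45 for 252 3p strands. The arms of the cluster also differ in base content. Tested 5p members held a median of 31.8% G and tested 3p members 18.2% G, beside 30.4% and 22.7% over all tested miRNAs of each arm.

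m7G is a modified guanosine, so the base content of each mature strand was set beside its log2 ratio. The 7 enriched members held a median of 40.9% G, from 27.3% in miR-409-3p to 45.5% in miR-134-5p. The 21 depleted members held a median of 21.7% G and the 15 others 22.7%. Over all tested miRNAs with a sequence, the medians were 39.1% G for the enriched and 22.7% G for the depleted, so the members were near the background. Across the 43 members, the log2 ratio had a Pearson r of 0.36 and a Spearman rho of 0.39 with the percent of G. The same values over the 557 tested miRNAs with a sequence were 0.41 and 0.44. For A, C and U the members' r was -0.18, -0.26 and -0.05. These correlations are across miRNAs of the same 6 libraries and are descriptions, since members are not independent replicates and the bases of a strand sum to a whole.

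**Figure D5:**
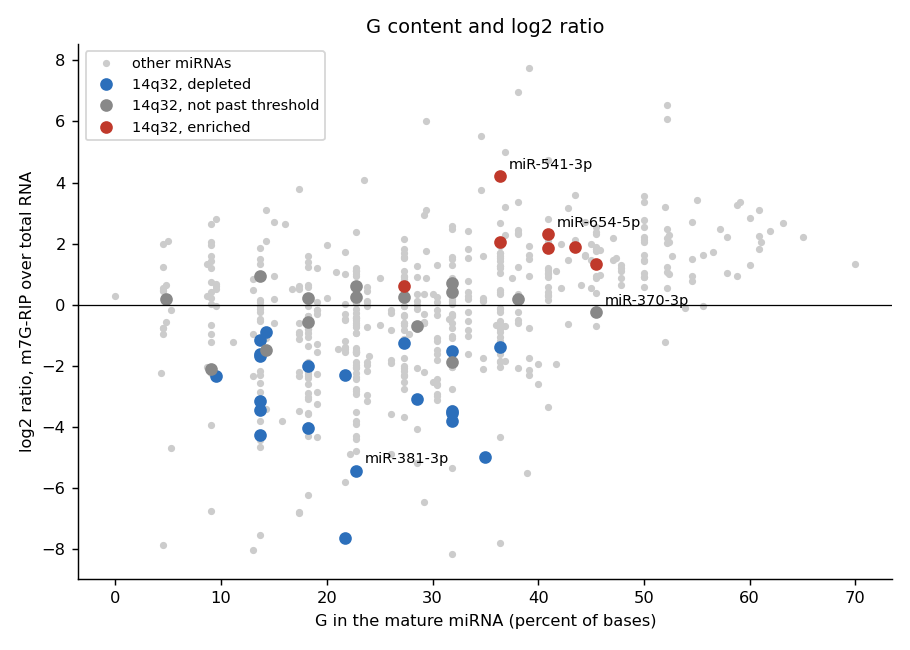
Log2 ratio of m7G-RIP over total RNA (vertical axis) against the percent of G in the mature strand, with grey dots for other tested miRNAs and coloured points for the 43 tested 14q32 members by call. Enriched members sit at 27.3% to 45.5% G, whereas miR-370-3p, with 45.5% G, lies at a log2 ratio of -0.24.

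Single members departed from that relation. miR-370-3p, with 45.5% G, was not enriched, and miR-493-3p, with 36.4% G, was depleted. Both are printed here to set beside the enriched strands, with the seed in capitals.
miR-370-3p: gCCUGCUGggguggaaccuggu
miR-493-3p: uGAAGGUCuacugugugccagg
The run GGG, searched for in the mature strand itself, was present in 4 of the 7 enriched members (57.1%), 6 of the 21 depleted members (28.6%) and 4 of the 15 others. Among all tested miRNAs with a sequence it was in 56.3% of the enriched and 19.9% of the depleted, so the members were near the background. Whether tested or not, 22.5% of members and 32.9% of 2281 mature miRNAs with a sequence held it. Both miR-654-5p and miR-541-3p carry it inside the seed, and miR-381-3p carries it at the end of the seed.

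By position in the cluster, the MIR493 to MIR136 group held 15 members, of which 11 were tested. Of these, 1 was enriched (9.09%) and 7 were depleted (63.6%), with a median log2 ratio of -1.52. The MIR379 to MIR656 group held 73 members, of which 31 were tested, 6 were enriched (19.4%) and 14 were depleted (45.2%), with a median of -1.16. Over all miRNAs tested, 23.5% were enriched and 29.2% depleted. In the first group, the depleted miR-665, miR-431-3p, miR-127-5p, miR-136-5p and miR-136-3p had passed the filter through total RNA. In the second, miR-411-3p, miR-299-5p, miR-299-3p, miR-758-3p, miR-382-3p and miR-409-5p had done so. The shares of depleted members therefore depend on the filter. Summed counts of the first group relative to the second were lower in m7G-RIP, by 0.55 log2 units or 1.47-fold (exact two-sided permutation p = 0.1). Without the most abundant member of each group, the difference was -0.41, and the libraries overlapped (exact permutation p = 0.2). Of the 7 enriched members, 5 came from the 10 hairpins between MIR382 and MIR409, a stretch of 11.1 kb in MEG9 with 10 tested members, of which 3 others were depleted. Among these, miR-541-3p had passed the filter through m7G-RIP, and miR-382-3p and miR-409-5p through total RNA. This stretch was marked out after the values were seen.

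Other miRNA clusters made from a shared transcript were set beside 14q32. Relative to the MIR17HG cluster without miR-92a, which was depleted for 6 of 7 tested members, 14q32 counts were 4.97-fold higher in m7G-RIP than in total RNA (exact two-sided permutation p = 0.1). Relative to the Xq26 cluster of miR-424, miR-503, miR-450 and miR-542, they were 1.38-fold lower (exact permutation p = 0.1). With the mean log2 CPM of tested members in place of summed counts, this second difference was 0.00383 log2 units (exact permutation p = 1). Of the miRNAs of the same imprinted domain outside the naming rule, miR-1247-5p and miR-1247-3p, from the DIO3 end, were both enriched, with log2 ratios of 2.38 and 0.87 (adjusted p = 0.00034 and 0.00159 by edgeR). miR-770-5p had 16 counts in m7G-RIP replicate 2 and 0 elsewhere, and miR-2392 and miR-544a had no count.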

How the data were processed

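For both groups the authors deposited unnormalised read counts, 1 value per mature miRNA and library. Per the study's methods, adaptors were removed from single-end reads (Trimmomatic), STAR aligned whole reads to GRCh38 and reported several alignments, and featureCounts used miRBase 22. The submitters' processing notes name Bowtie2 in place of STAR. How reads with several alignments were counted is not given in the sources used here. No molecular identifiers were used. The fold limit printed for a group with no count reflects counting error alone, whereas SE and SD include the spread between libraries.

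The tests used edgeR 4.0.16 under R 4.3.3 (TMM, expression filter by group, robust quasi-likelihood F test). The SE is the log2 ratio divided by the square root of F. A group with no count was set at 3 counts. For single values, libraries were permuted exactly (two-sided). The code was tested on simulated data. Chi-square per degree of freedom between replicates was 22.2 to 112 over all miRNAs and 6.64 to 19.2 over the members, above counting noise. Each of the 6 libraries counted as a replicate. Alternatives covered scaling, filter, tool (DESeq2 1.42.0, limma-voom 3.58.1), threshold, replicate block and leaving out each library.

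Members named were the 12 most abundant in total RNA, the 5 highest and 5 lowest called log2 ratios with at least 10 counts in every library, tested members above 0 or not called, arms compared, and members sharing their seeds. Members and lists were chosen with earlier results of these data known.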

Additional observations from a re-analysis of the deposited data

How the results depend on the processing

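The number of enriched members was 6 to 12 over all alternatives and 7 without each library in turn. It was 12 with library size alone, which also moved the median of all miRNAs tested. The number of depleted members was 13 to 26 without each library in turn, with 13 without total RNA replicate 3, 9 where each library had to hold 10 counts, 11 at an adjusted p under 0.01, and 11 with a mean of at least 100 counts, an alternative chosen after seeing the data. Stricter filters leave fewer members to test, and the limit of 10 counts in each library leaves out those low in m7G-RIP. The median log2 ratio of the members was -0.71 when scaled by library size, -0.80 when library sizes left out the top 10 miRNAs, -2.17 unfiltered, 0.17 where each library had to hold 10 counts (0.0646 over all miRNAs kept), -0.89 with a mean of at least 100 counts, and -1.66 to -0.95 without each library. No called member was called in the opposite direction under any alternative.

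With the replicate block, 7 members were enriched and 20 depleted, with a median of -1.39. Deviations of same-numbered libraries correlated at -0.0433, -0.101 and 0.0641, so the libraries were not treated as pairs, although shared RNA between them cannot be told from this, and the paired sign-flip test cannot give an exact p under 0.25.

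The difference in the members' share of counts was 0.0164 percentage points. It was -0.0383 points with the top 10 miRNAs left out of the total (exact permutation p = 0.4) and -0.293 points without miR-21-5p, and the cause was not tested beyond the change of total. The ratio to the Xq26 cluster was 0.00383 log2 units with mean log2 CPM. The r with G was 0.40 to 0.50 without each library and 0.49 where each library had to hold 10 counts. For A these were -0.42 to -0.25 and -0.39, for C -0.35 to -0.12 and -0.32, and for U -0.17 to 0.19 and 0.11. The sign for U turned without m7G-RIP replicate 1 (0.14) or 2 (0.19). The causes of these moves were not tested.

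Some log2 ratios of members that did not pass the test changed sign. With no filter these were miR-493-5p (-0.0092), miR-379-5p (-0.11), miR-543 (-0.0272), miR-1185-2-3p (-0.001) and miR-656-3p (-0.0801). miR-370-3p was 0.31 when scaled by library size and 0.21 when library sizes left out the top 10 miRNAs. miR-539-5p was -0.56 with limma-voom and -0.22 with the replicate block. Without each library in turn, signs turned for miR-493-5p (-0.11 to 0.34), miR-433-3p (-0.27 to 0.85), miR-379-5p (-0.26 to 0.21), miR-543 (-0.30 to 0.32), miR-1185-2-3p (-0.12 to 0.45), miR-539-5p (-0.51 to 0.77) and miR-656-3p (-0.19 to 0.0987). Of 512 values of named members under alternatives, 457 kept direction and side of the threshold. Depth limits the 47 untested members, for which a difference was not detectable here.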
